A study of Mus musculus with 8 samples.

Results

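The Ly6 (lymphocyte antigen 6) family surface proteins were examined in the livers of SIRT7 KO and WT mice, with 4 arrays from each genotype. The 6 listed genes were Ly6a, Ly6c1, Ly6d, Ly6e, Ly6f and Ly6h, and every probe set assigned to 1 of them alone was kept. This gave 4 probe sets of the 22626 tested, 1 each for Ly6a, Ly6d, Ly6f and Ly6h. The family was chosen by the differences between SIRT7 KO and WT on these same arrays, in which Ly6d ranked 17 and Ly6a 25 by size of increase, so the differences of the 4 probe sets are given as a description with no test. The platform annotation names Ly6d, Ly6f and Ly6h, whereas the probe set of Ly6a carries no symbol there and was named from the gene symbol column of the study's own supplementary table. Ly6c1 is represented only by a probe set shared with Ly6c2, which is described separately, and Ly6e was not analysed here because no probe set names it.

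Total RNA from each liver was labelled with biotin and hybridised to an Affymetrix GeneChip mouse expression array. SIRT7 is a histone deacetylase, and the study used its loss as a model of fatty liver disease in mice on a chow diet. The groups are SIRT7 KO mice and WT mice. The labels name no treatment for either group, and the sources used here do not give the age, sex or strain of the animals on these arrays or the structure of the Sirt7 allele. The values are deposited log2 expression levels, so a difference of 1 is a doubling, and each probe set hybridises with its own strength, so levels were compared between arrays and not between probe sets. Ly6 genes resemble each other in sequence, and whether a probe set also reads RNA of a relative was not tested.

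Ly6 proteins are small, carry the cysteine-rich 3-finger fold that they share with the urokinase receptor (uPAR), and most are fixed to the outer leaflet of the cell membrane by a glycosylphosphatidylinositol (GPI) anchor. In the mouse, many of their genes lie side by side on chromosome 15. Several of them serve as markers of blood cells and progenitors, and Ly6a and Ly6e are known as genes that interferons induce. In the healthy liver, hepatocytes make most of the RNA, whereas many Ly6 proteins are known from endothelial cells and leukocytes.

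The arrays matched their labels. Sirt7 averaged 4.64 ± 0.22 in SIRT7 KO livers and 8.85 ± 0.19 in WT livers (SD, n = 4 each, difference -4.21 ± 0.13 SE, limma adjusted p = 9.2e-07). The median level of an array was between 6.33 and 6.36 in SIRT7 KO and between 6.30 and 6.36 in WT. Of 8 hepatocyte markers 7 were measured, with mean levels of 14.00 to 14.08 in SIRT7 KO and 14.09 to 14.22 in WT, and 0 of them passed the test. The 45 bacterial and phage spike-in probe sets averaged 8.39 to 8.61 on SIRT7 KO arrays and 8.63 to 8.76 on WT arrays, and the signal of Gapdh at its 3′ end minus that at its 5′ end, a sign of RNA integrity, was -0.02 to 0.16 on SIRT7 KO arrays and 0.16 to 0.29 on WT arrays. The genotypes did not overlap in either measure, though only narrowly, and their part in the results below was not tested. Levels are those of whole liver, in which fewer cells of a type and less RNA per cell cannot be told apart.

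Ly6a and Ly6d were both about 3-fold higher in SIRT7 KO livers. Ly6a, known as Sca-1, marks hematopoietic stem and progenitor cells in the mouse and is also found on endothelial cells and T cells. Its level was 9.53, 9.59, 9.90 and 9.58 in SIRT7 KO livers 1 to 4, against 8.06, 8.32, 8.02 and 7.93 in WT livers 1 to 4. Every SIRT7 KO array lay above every WT array, with a gap of 1.21 between the lowest SIRT7 KO and the highest WT value. The means were 9.65 ± 0.17 in SIRT7 KO and 8.08 ± 0.17 in WT (SD, n = 4 each), a difference of 1.57 ± 0.11 (SE) or 2.97-fold.

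Ly6d marks the lymphoid progenitors of the mouse that are committed to the B cell lineage and is also made by stratified epithelia. Its level was 8.09, 7.77, 7.38 and 7.64 in SIRT7 KO livers 1 to 4, against 5.88, 6.57, 5.86 and 5.99 in WT livers 1 to 4. The genotypes did not overlap, with a gap of 0.82, although WT liver 2 stood above the other 3 WT livers. The means were 7.72 ± 0.30 in SIRT7 KO and 6.07 ± 0.33 in WT (SD, n = 4 each), a difference of 1.65 ± 0.19 (SE) or 3.13-fold.

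The other pair of probe sets showed no such separation. Ly6h, which in mice is a brain protein that modulates nicotinic acetylcholine receptors, had levels of 4.49, 4.72, 4.68 and 4.41 in SIRT7 KO livers and 4.60, 4.33, 4.65 and 4.74 in WT livers. The genotypes overlapped fully, and the difference was -0.01 ± 0.11 (SE). Ly6f, a close relative of Ly6c1, had levels of 4.04, 4.37, 4.29 and 4.24 in SIRT7 KO livers and 4.16, 4.04, 4.18 and 4.36 in WT livers. Its difference was 0.05 ± 0.09 (SE), again with full overlap. The mean of Ly6f lay below the lower quartile of all probe set means (4.56) and that of Ly6h close to it, and because no detection calls were used, a change in either gene that stays near background would not be seen.

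**Figure D1:**
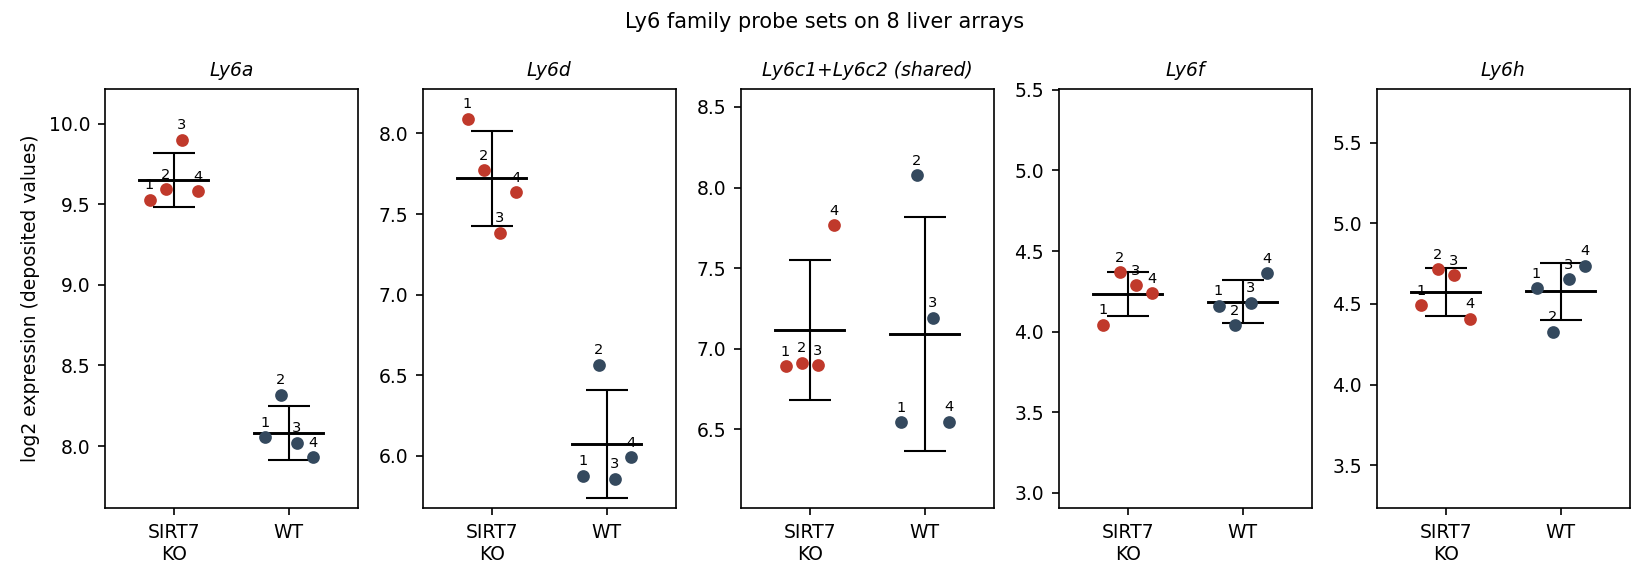
Deposited log2 level of each Ly6 probe set (vertical axes, each spanning the same range of log2 units) on the 4 SIRT7 KO and 4 WT arrays (points, numbered by replicate), with the mean and SD. The arrays of the genotypes are apart for Ly6a and Ly6d and overlap for Ly6f, Ly6h and the probe set shared by Ly6c1 and Ly6c2.

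Of the 4 probe sets, 2 passed the study's threshold of an adjusted p under 0.15, both higher in SIRT7 KO, beside 975 of all 22626 (4.31%). The same 2 had all 4 SIRT7 KO values above all 4 WT values, beside 3.79% of all probe sets. These calls come from the contrast by which the family was chosen, and nothing is read from them.

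The probe set that Ly6c1 shares with Ly6c2 followed individual livers and not genotype. Both genes code for the Ly6C antigen, which marks inflammatory monocytes at high level. The levels were 6.89, 6.91, 6.90 and 7.77 in SIRT7 KO livers 1 to 4, against 6.55, 8.08, 7.19 and 6.55 in WT livers 1 to 4. SIRT7 KO liver 4 and WT livers 2 and 3 were high, and the difference was 0.03 ± 0.34 (SE). The mean levels of neutrophil and of monocyte markers stood high in the same livers. That of Kupffer cell and macrophage markers, given below, did not follow them, being highest in SIRT7 KO liver 3 and WT liver 2. The mean of 10 measured neutrophil markers of 11 was 5.14, 5.05, 5.42 and 7.52 in SIRT7 KO livers 1 to 4, against 5.05, 8.21, 7.81 and 5.10 in WT livers 1 to 4. The mean of 10 measured monocyte markers of 11 was 8.17, 7.88, 8.42 and 8.89 in SIRT7 KO livers, against 7.60, 9.23, 8.54 and 7.46 in WT livers. None of the 20 markers passed the test between genotypes, and none was below an unadjusted p of 0.05. Without SIRT7 KO liver 4 and WT livers 2 and 3, the difference was 1.68 for Ly6a, 1.81 for Ly6d and 0.36 for the shared probe set. These livers were picked after seeing the levels above, which by itself raises the difference of the shared probe set, and few arrays are left. The part of myeloid cells in the levels of Ly6a and Ly6d was not tested.

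Promoter sequence was at hand for 2 of the 6 listed genes, Ly6f and Ly6c1. The 300 bases from 250 before to 50 after each start site are shown because these related genes are among those whose probe sets did not separate the genotypes. They are from RefSeq on GRCm38.p6, at chr15:75268171-75268470 on the plus strand for Ly6f and at chr15:75048788-75049087 on the minus strand for the first of both listed Ly6c1 promoters. Capitals mark the longest run of bases found in both, 23 bases long. The promoter of Oas1a, an interferon-stimulated gene described below, is shown for comparison, at chr5:120907476-120907775 on the minus strand, and there capitals mark matches to the core of the interferon-stimulated response element.
Ly6f: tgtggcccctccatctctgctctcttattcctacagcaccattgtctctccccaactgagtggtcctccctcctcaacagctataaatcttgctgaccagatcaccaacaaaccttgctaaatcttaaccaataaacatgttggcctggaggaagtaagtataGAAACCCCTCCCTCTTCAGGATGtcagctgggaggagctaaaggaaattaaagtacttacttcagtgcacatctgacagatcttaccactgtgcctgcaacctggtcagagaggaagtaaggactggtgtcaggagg
Ly6c1: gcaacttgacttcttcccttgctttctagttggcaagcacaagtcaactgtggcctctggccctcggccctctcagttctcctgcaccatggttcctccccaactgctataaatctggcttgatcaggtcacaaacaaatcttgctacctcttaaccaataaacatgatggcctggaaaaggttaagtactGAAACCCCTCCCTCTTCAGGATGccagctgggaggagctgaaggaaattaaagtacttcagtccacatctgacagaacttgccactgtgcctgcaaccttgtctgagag
Oas1a: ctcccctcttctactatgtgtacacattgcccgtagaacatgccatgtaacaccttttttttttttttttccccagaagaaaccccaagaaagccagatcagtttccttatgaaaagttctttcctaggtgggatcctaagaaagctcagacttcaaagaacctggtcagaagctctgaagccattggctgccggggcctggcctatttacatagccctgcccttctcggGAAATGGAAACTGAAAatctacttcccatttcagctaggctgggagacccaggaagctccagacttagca
A global alignment of the Ly6f and Ly6c1 promoters held 231 identical bases of 300. The response element core was searched as GAAANNGAAA on both strands. Of all 32851 promoters of this length, 3.44% held this motif. The promoters of Ly6f and Ly6c1 each had 0 matches, whereas that of Oas1a had 2 overlapping matches. Of the 13 interferon-stimulated genes that rose and had a promoter at hand, 5 held the motif, Oas1a among them. A missing match says only that these letters are not in this window. Nothing follows for Ly6a or Ly6d, whose promoters were not at hand.

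No relative of the listed genes passed the test. The relatives comprised other Ly6 genes and proteins of the uPAR fold, of which 18 of 41 were measured by a probe set of their own. In 8 of them the means of both genotypes lay below the lower quartile of all probe set means (4.56). A change in these genes that stays near background would not be seen. Of these 18, 10 had a positive difference, and the median difference was 0.03, beside -0.003 over all 12393 genes. The share of all genes that passed was 2.17% in the higher direction and 2.48% in the lower. Of the 18, 2 had an unadjusted p under 0.05, beside 14.9% of all probe sets.

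Ly6i, which lies beside Ly6a, had levels of 5.05, 4.80, 5.14 and 4.86 in SIRT7 KO livers, against 4.69, 4.59, 4.59 and 4.85 in WT livers. Its groups overlapped narrowly, and its difference of 0.28 ± 0.10 (SE) did not pass (limma adjusted p = 0.22). Cd59a, which blocks the membrane attack complex of complement, had levels of 10.69, 10.65, 10.08 and 10.01 in SIRT7 KO livers, against 11.17, 11.31, 10.64 and 10.48 in WT livers. In both genotypes livers 3 and 4 were lower than livers 1 and 2, and the difference of -0.54 ± 0.22 (SE) did not pass (limma adjusted p = 0.30). Plaur, the urokinase receptor itself, differed by 0.13 ± 0.09 and Lynx1, a modulator of nicotinic receptors, by 0.15 ± 0.12, with limma adjusted p = 0.58 and 0.62. Without WT liver 4, Lynx1 passed with a difference of 0.27.

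**Figure D2:**
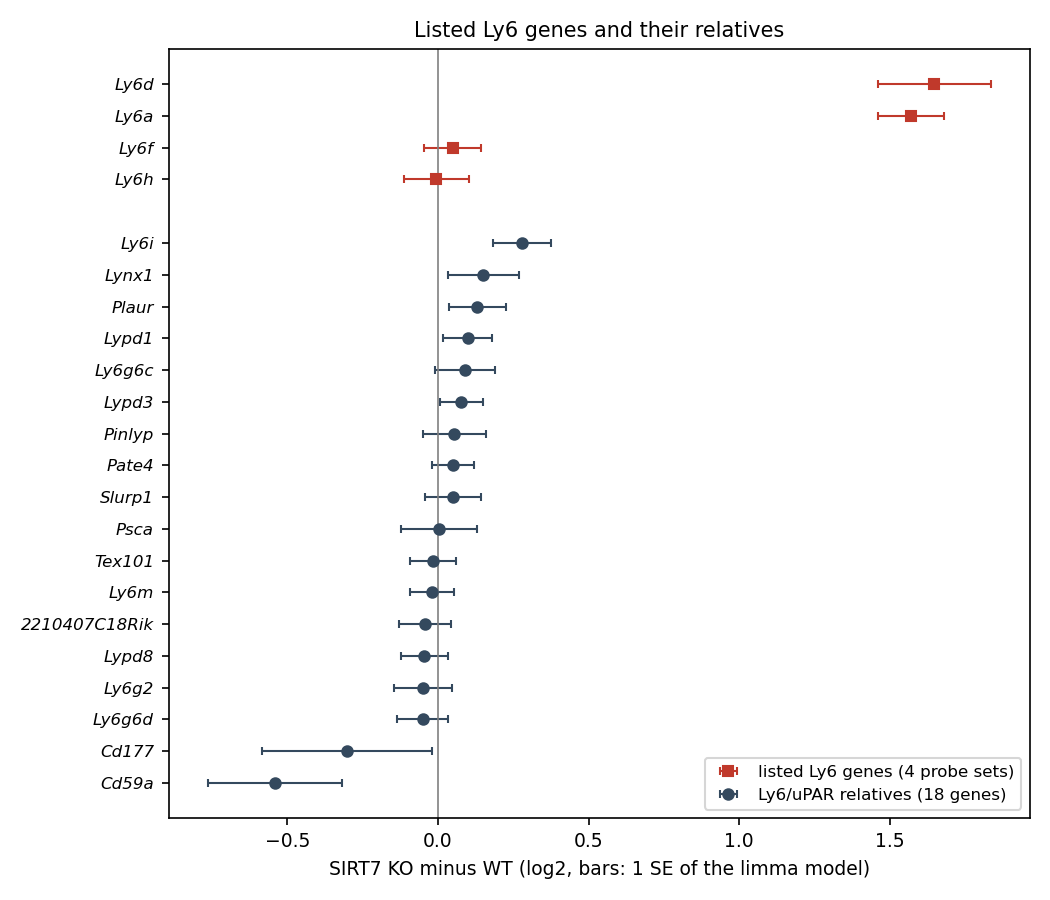
Difference between SIRT7 KO and WT in log2 units (horizontal axis, bars 1 SE) for the 4 probe sets of the listed Ly6 genes and for 18 relatives with the uPAR fold. Ly6d and Ly6a lie at 1.65 and 1.57, whereas the relatives run from -0.54 for Cd59a to 0.28 for Ly6i.

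None of the measured genes around Ly6d and Ly6a passed the test. On chromosome 15, the stretch that runs from 10 protein-coding genes before Ly6d to 10 after Ly6h holds 42 protein-coding genes in the RefSeq order of GRCm38.p6. Of the 36 that are not listed genes, 14 had a probe set of their own, and 0 of these passed in limma. Several of the 14, Ly6i, Ly6m, Ly6g2 and Lynx1 among them, were also counted with the relatives above, so the counts are not separate results. In 3 of the 14 the means of both genotypes lay below the lower quartile of all probe set means. The differences of the 14 ran from -0.25 to 0.28 with a median of 0.02, and 3 of the 14 had an unadjusted p under 0.05, beside 14.9% of all probe sets. The measured genes between Ly6d and Ly6a are Cyp11b2 (-0.03 ± 0.08), an aldosterone synthase, Ly6m (-0.02 ± 0.07) and Ly6i. The first measured gene on the far side of Ly6a is Ly6g2 (-0.05 ± 0.10). Ly6g6g, Ly6k, Gml, Gml2, Cyp11b1 and Ly6e between Ly6d and Ly6a had no probe set of their own. The same holds for Ly6c1, Ly6c2, Ly6a2 and Ly6g between Ly6a and Ly6g2.

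The 4 neighbours with the smallest p were Eef1d, Ly6i, Zc3h3 and Rhpn1. Eef1d, a subunit of translation elongation factor 1, had levels of 11.27, 11.12, 11.25 and 11.17 in SIRT7 KO livers, against 11.34, 11.52, 11.40 and 11.56 in WT livers. Its groups did not overlap, and its difference of -0.25 ± 0.07 (SE) lay just outside the threshold (limma adjusted p = 0.16). Zc3h3, a zinc finger protein, differed by 0.15 ± 0.07 (limma adjusted p = 0.33), and Rhpn1 by 0.11 ± 0.08 (limma adjusted p = 0.60).

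**Figure D3:**
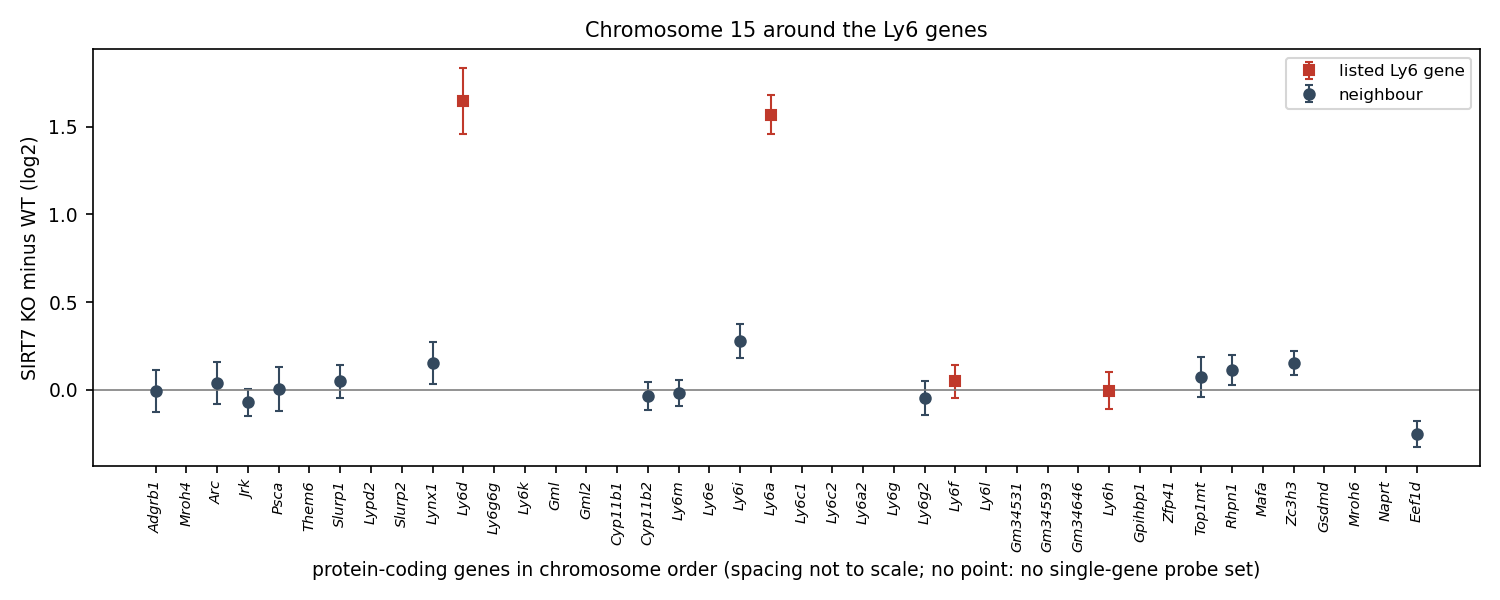
Difference between SIRT7 KO and WT in log2 units (vertical axis, bars 1 SE) for the genes of chromosome 15 in their order (horizontal axis, not to scale). Genes with no point had no probe set of their own. Ly6d and Ly6a stand at 1.65 and 1.57, and the 14 measured neighbours lie between -0.25 and 0.28.

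Of the genes that make, attach and cleave GPI anchors, on which most Ly6 proteins depend, 20 of 30 were measured, 0 rose and 1 fell, beside 2.48% of all genes that fell, and their median difference was -0.03. This single gene was Gpld1, a phospholipase that cleaves GPI anchors and is secreted by the liver. It had levels of 9.68, 9.99, 10.26 and 9.99 in SIRT7 KO livers, against 10.71, 10.64, 10.69 and 10.32 in WT livers, a difference of -0.61 ± 0.13 (SE, limma adjusted p = 0.076). The groups did not overlap, but the call was lost without WT liver 1, WT liver 2, SIRT7 KO liver 2 or SIRT7 KO liver 4 (adjusted p of 0.198, 0.157, 0.155 and 0.182). Pigx, which acts in adding the first mannose to the anchor, differed by -0.23 ± 0.07 and did not pass (limma adjusted p = 0.16). Pigp and Pigq, subunits of the enzyme of the first step, differed by 0.51 ± 0.21 and 0.15 ± 0.08 (limma adjusted p = 0.29 and 0.41).

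Many interferon-stimulated genes rose in SIRT7 KO livers. The list was drawn up with earlier results of these arrays known, so its direction is not independent evidence. Of 46 listed genes 37 were measured, 21 rose and 0 fell, and the median difference was 0.63, beside -0.003 over all genes and 2.17% of all genes that rose. Usp18, a protease that removes ISG15 from proteins, had the smallest p among them, with a difference of 2.18 ± 0.23 (SE, limma adjusted p = 0.0094). Its levels were 9.38, 9.49, 10.11 and 9.86 in SIRT7 KO livers, against 7.04, 7.71, 7.32 and 8.04 in WT livers. Oas1a, a sensor of double-stranded RNA, had levels of 8.97, 8.85, 9.75 and 9.48 in SIRT7 KO livers, against 7.28, 7.87, 7.69 and 7.96 in WT livers, a difference of 1.56 ± 0.22 (SE, limma adjusted p = 0.027). For both genes SIRT7 KO livers 3 and 4 were the highest of all. Ifit2, which binds viral RNA, and Rtp4, a chaperone of receptors, rose by 1.09 ± 0.13 and 1.18 ± 0.15 (limma adjusted p = 0.015 and 0.024), although a dimmer probe set of Rtp4 (0.40, limma adjusted p = 0.28) did not pass.

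The number of interferon-stimulated genes that rose changed when single livers were left out, as did that of all probe sets past the threshold. Of these genes, 7 rose without WT liver 1, 13 without WT liver 3 or SIRT7 KO liver 3, and 12 without SIRT7 KO liver 4. All probe sets past the threshold fell from 975 to 222, 735, 594 and 267 without these livers in that order. Without 1 of the other livers, 15 to 20 of these genes rose. SIRT7 KO liver 4 and WT livers 2 and 3 were also left out together, a removal chosen after seeing the data. Then 2 of these genes rose, and 40 of all probe sets passed. Each removal leaves fewer arrays, so the drop is not read as a property of these genes. Of the 21 genes that rose, 13 had a promoter in the RefSeq table, of which 5 held GAAANNGAAA.

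Of 32 listed genes that interferon gamma induces, 28 were measured, 5 rose and 0 fell, beside 2.17% of all genes that rose. The median difference was 0.16, and 20 of the 28 had a positive difference. Among those with a negative one were Ciita (-0.09), Cd74 (-0.19), H2-Aa (-0.28), H2-Ab1 (-0.31) and H2-Eb1 (-0.26), genes of class II antigen presentation, which did not pass. Psmb9, a subunit of the immunoproteasome, rose by 0.70 ± 0.13 (limma adjusted p = 0.050). The guanylate-binding proteins Gbp3, Gbp6 and Gbp7, which act against intracellular pathogens, rose by 0.93 ± 0.17, 0.88 ± 0.20 and 0.49 ± 0.12 (limma adjusted p = 0.051, 0.083 and 0.098). When 1 liver was left out in turn, Psmb9 passed in 8 of 8 fits, Gbp3 in 7, Gbp6 in 5 and Gbp7 in 2. Only 2 of the 28 genes passed without WT liver 1 or without WT liver 3, and 3 without SIRT7 KO liver 1, 3 or 4. In these fits all probe sets past the threshold also fell, from 975 to between 222 and 735.

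Of 34 genes for interferons, their receptors and their signalling proteins, 27 were measured, and the median difference was -0.01. Of the 27, 2 rose and 0 fell, beside 2.17% of all genes that rose. The 2 that rose were Usp18, which is also a brake on the receptor, and Irf7, a transcription factor that amplifies the response. Irf7 rose by 1.26 ± 0.21 (limma adjusted p = 0.042), with means of 8.44 ± 0.43 in SIRT7 KO livers and 7.18 ± 0.26 in WT livers (SD, n = 4 each) and no overlap. Both genes are also among the interferon-stimulated genes. Irf9, the DNA-binding part of the complex activated by type I interferon, differed by 0.34 ± 0.10 (limma adjusted p = 0.16) and the receptor chain Ifnar1 by -0.17 ± 0.08 (limma adjusted p = 0.34).

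**Figure D4:**
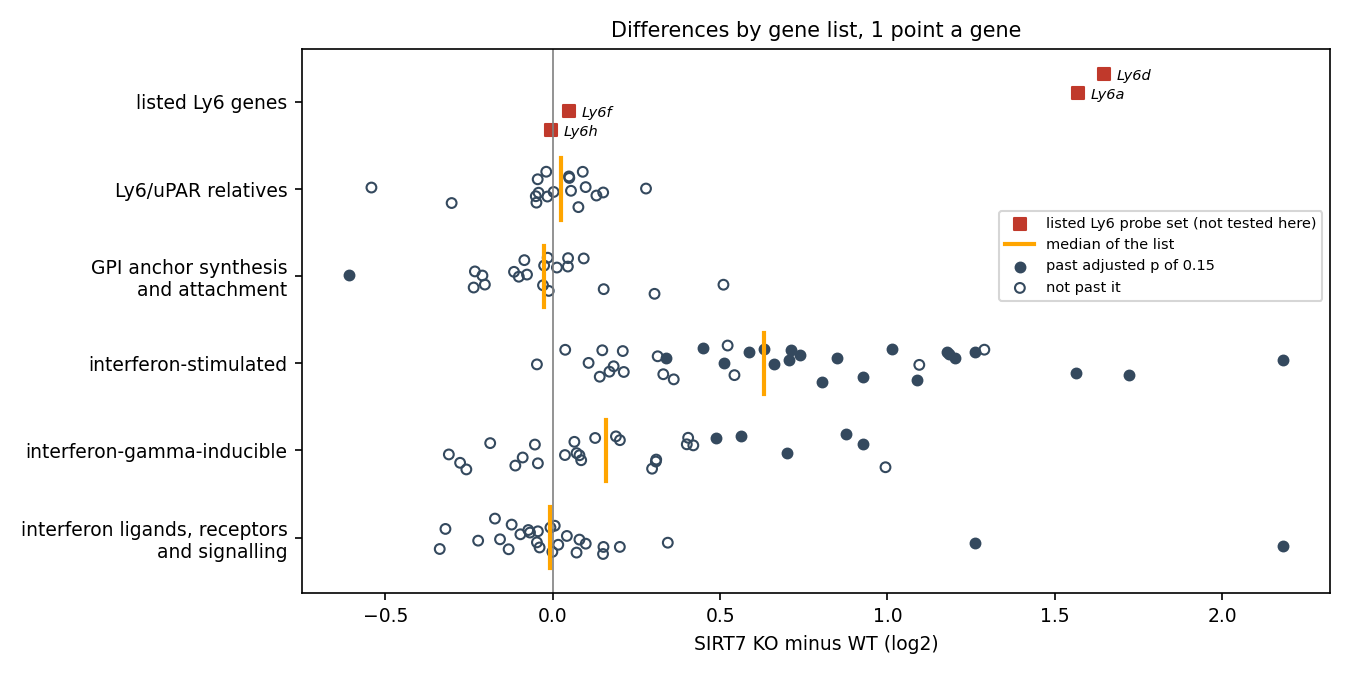
Difference between SIRT7 KO and WT in log2 units (horizontal axis) for the listed Ly6 probe sets and for the genes of 5 lists, 1 point a gene, filled where the gene passed an adjusted p under 0.15 and with an orange line at the median of the list. Ly6d and Ly6a lie at 1.65 and 1.57, the interferon-stimulated genes have a median of 0.63, and the relatives with the uPAR fold centre on 0.03.

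Ly6a and Ly6d did not follow the same livers within SIRT7 KO, whereas within WT both were highest in liver 2. Among SIRT7 KO livers, Ly6a was highest in liver 3 and lowest in liver 1, whereas Ly6d was highest in liver 1 and lowest in liver 3. The mean of the 37 interferon-stimulated genes was 7.90, 7.94, 8.37 and 8.16 in SIRT7 KO livers 1 to 4, against 7.22, 7.58, 7.41 and 7.35 in WT livers 1 to 4. It was highest in SIRT7 KO liver 3 and in WT liver 2, as was Ly6a, and lowest among SIRT7 KO livers in liver 1. Of the 19 gene and marker lists, 5 were highest in this same pair of livers, the others being the relatives, the interferon signalling genes and the markers of plasmacytoid dendritic cells and of Kupffer cells and macrophages. The mean of the Kupffer cell and macrophage markers was 8.19, 8.11, 8.90 and 8.61 in SIRT7 KO livers 1 to 4, against 7.99, 8.73, 8.13 and 7.98 in WT livers 1 to 4, and its part in the level of Ly6a was not tested. In WT liver 2, Ly6a, Ly6d and the interferon-stimulated mean were each the highest of their genotype.

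**Figure D5:**
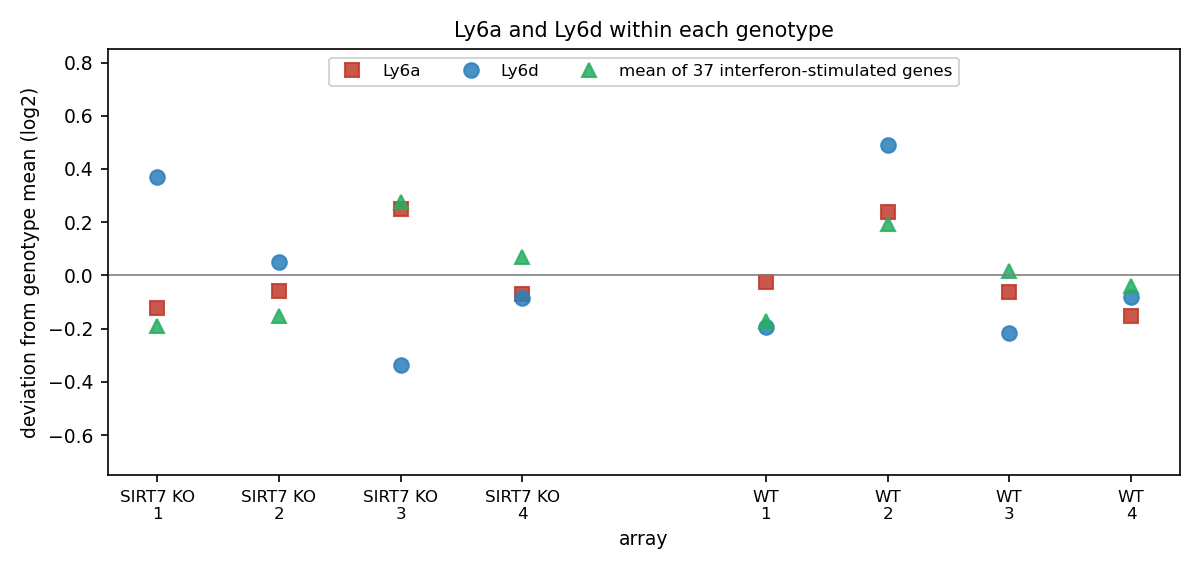
Deviation of each array from the mean of its genotype in log2 units (vertical axis) for Ly6a, Ly6d and the mean of 37 interferon-stimulated genes, with the SIRT7 KO arrays left of the WT arrays. In SIRT7 KO liver 3 Ly6a and the interferon-stimulated mean lie above 0 and Ly6d below it, and in WT liver 2 all lie above 0.

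The genes most like each of them over the 8 arrays, once the genotype means were removed, were taken from 6922 genes brighter than the median. For Ly6a these were Rsad2 (r = 0.97), the antiviral protein viperin, Ipp (r = 0.97), a protein with kelch repeats, and St6galnac6 (r = 0.97), a sialyltransferase. For Ly6d they were Ctsh (r = 0.98), the protease cathepsin H, Mlycd (r = 0.95), which degrades malonyl-CoA, and Cst3 (r = 0.94), the protease inhibitor cystatin C. These are the highest values of many over 8 arrays and are given as a description. None of the 6 genes passed the test between genotypes, and their differences ran from -0.29 for Ctsh to 0.54 for Rsad2. With the genotype means left in, r was 0.80 for Rsad2 and -0.59 for Ctsh.

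Few markers of the cell types in which Ly6a and Ly6d are known passed the test, and the calls in each marker list stand beside 2.17% of all genes that rose and 2.48% that fell. Of 18 endothelial markers, all of them measured, 1 rose and 1 fell, and their mean was 7.51 to 7.57 in SIRT7 KO livers and 7.47 to 7.57 in WT livers. Lyve1, a hyaluronan receptor of sinusoidal endothelium, rose by 1.21 ± 0.21 (limma adjusted p = 0.046), whereas the scavenger receptor Stab1 fell by 0.30 ± 0.08 (limma adjusted p = 0.13). The call of Stab1 was lost without any of the 8 livers but WT liver 2. Of 8 markers of hematopoietic stem and progenitor cells, all measured, 0 passed, with means of 4.96 to 5.07 in SIRT7 KO livers and 4.95 to 5.02 in WT livers. In 4 of the 8 the means of both genotypes lay below the lower quartile of all probe set means, where a change near background would not be seen.

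Of 15 measured T and NK cell markers of 17, 1 fell, Cd3g of the T cell receptor complex (-0.39 ± 0.11, limma adjusted p = 0.14), a call kept in 2 of the 8 fits that leave out 1 liver. The mean of this list was 4.87 to 5.34 in SIRT7 KO livers and 4.94 to 5.07 in WT livers. Of 11 measured B and plasma cell markers of 13, 0 passed, with means of 6.51 to 6.68 in SIRT7 KO livers and 6.47 to 7.08 in WT livers. Of 8 measured markers of squamous epithelium of 9, 0 passed, with means of 5.01 to 5.11 in SIRT7 KO livers and 4.99 to 5.10 in WT livers.

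Markers of stellate cells and fibroblasts, the matrix-producing cells of the liver, separated the genotypes in the same direction as Ly6a and Ly6d. So did the mean of the interferon-stimulated genes and, only just, that of the plasmacytoid dendritic cell markers. All 12 stellate cell markers were measured, 3 rose and 0 fell, and 11 had a positive difference. The mean of the 12 was 7.73 to 8.09 in SIRT7 KO livers and 7.31 to 7.68 in WT livers. The hepatocyte markers separated the genotypes the other way, but only narrowly, with means of 14.00 to 14.08 in SIRT7 KO livers and 14.09 to 14.22 in WT livers. The difference was negative in 7 of 7, from -0.27 to -0.0001 with a median of -0.14, and 0 of 7 passed the test. The 3 stellate cell markers that rose were the matrix proteoglycans Lum (0.73 ± 0.15, limma adjusted p = 0.066) and Dcn (0.41 ± 0.10, limma adjusted p = 0.10) and the smooth muscle actin Acta2 (0.61 ± 0.16, limma adjusted p = 0.13). A dimmer probe set of Acta2 did not pass (-0.05, limma adjusted p = 0.83). Without single livers, Dcn and Acta2 each passed in 2 of 8 fits and Lum in 8 of 8. Of 12 measured Kupffer cell and macrophage markers of 14, 1 rose, the lipid receptor Trem2 (0.35 ± 0.09, limma adjusted p = 0.13), with list means of 8.11 to 8.90 in SIRT7 KO livers and 7.98 to 8.73 in WT livers. The difference was positive in 11 of the 12, with a median of 0.26, beside 49.3% positive among all genes. A dimmer probe set of Trem2 differed the other way and did not pass (-0.13, limma adjusted p = 0.54). Trem2 passed in 2 of the 8 fits that leave out 1 liver. The part of these cells in the levels of Ly6a and Ly6d was not tested.

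Among 6 measured markers of plasmacytoid dendritic cells of 7, 1 rose, Bst2 (0.71 ± 0.15, limma adjusted p = 0.070), which is itself an interferon-stimulated gene, and its call was lost without WT liver 1. The mean of these markers was 6.68 to 6.82 in SIRT7 KO livers and 6.51 to 6.68 in WT livers. Of the markers of cholangiocytes (6 of 9 measured), erythroid cells (5 of 7) and neurons (7 of 7), 0 passed.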

How the data were processed

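Liver RNA of 4 SIRT7 KO and 4 WT mice was measured on Affymetrix mouse arrays, 1 array for each sample. The authors deposited log2 expression values, 1 for each probe set and array, after background correction, normalization and summary of the probes. The paper's methods call this step RMA, the submitters' processing notes call it GCRMA, and the files do not settle it. Software versions for this step are not given in the sources used. No detection calls, scan dates or batches were used, and 0 pairs of arrays held identical values. Where the sources do not say that the samples were processed apart, p-values measure only the spread between these samples, and 4 arrays a genotype limit the precision.

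Of 22690 probe sets, 64 controls were left out. The platform annotation gave 1 symbol to 20380 of the 22626 tested, several to 691 and none to 1555, and 20351 matched the RefSeq gene table of GRCm38.p6 by Entrez ID. Genes of lists were represented by their brightest probe set. The genotypes were compared in limma 3.58.1 under R 4.3.3, with lmFit and eBayes, genotype as the only term and Benjamini-Hochberg adjustment over all probe sets, at an adjusted p under 0.15 as in the study. The script was tested on simulated data. Promoters came from the RefSeq table and were aligned with Biopython 1.88.

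The listed genes and the 5 gene lists and 14 marker lists were chosen with earlier results of these data known. Named are every listed gene, Sirt7, the 4 genes with the smallest p of each gene list and of the neighbours, markers past the threshold, up to 4 a list, and the 3 genes most like Ly6a and Ly6d. The class II antigen presentation genes of the interferon-gamma list and the genes between Ly6d and Ly6g2 are named besides. Alternatives were a threshold of 0.05, trend and robust variance, array weights, quantile normalization, median centring, a filter on dim probe sets, the replicate block, the highest-variance probe set, likeness with genotype means left in, each replicate left out, and sets of arrays left out together.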

Additional observations from a re-analysis of the deposited data

Results flagged for a closer look

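In 84 groups of 4 arrays, 1 for each named gene and genotype, 2 arrays stood further from the other 3 of their group than Dixon's test allows for 4 values, where chance alone would mark about 1 group in 20. The probe set shared by Ly6c1 and Ly6c2 was at 7.77 in SIRT7 KO liver 4, while the other 3 SIRT7 KO livers lay between 6.89 and 6.91 (gap over range 0.98). Ipp, a gene named for its likeness to Ly6a, was at 7.69 in WT liver 2, while the other 3 WT livers lay between 7.61 and 7.62 (gap over range 0.83).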

How the results depend on the processing

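The differences of the listed genes ran from 1.43 to 1.68 for Ly6a and from 1.52 to 1.83 for Ly6d over 16 alternatives each, and from -0.03 to 0.11 for Ly6f and -0.09 to 0.08 for Ly6h, all within the spread of the replicates. Ly6f is absent from the fit without dim probe sets, and the planned Ly6e and Ly6c1 differences were not run, because neither gene had a probe set of its own. The number of Ly6 probe sets past the threshold was 2 under each of 17 alternatives.

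Counts moved more. All probe sets past the threshold were 975, with 156 at 0.05, 517 without WT liver 4 and SIRT7 KO livers 3 and 4, and 40 without WT livers 2 and 3 and SIRT7 KO liver 4, an alternative chosen after seeing the data. Leaving out 1 array gave 222 to 900. Interferon-stimulated genes (21) gave 7 at 0.05, 8 and 2 under the same removals, and 7 to 20 without 1 array. Interferon-gamma-inducible genes (5) gave 1, 1, 0 and 2 to 5. Interferon signalling genes (2) gave 0 without WT livers 2 and 3 and SIRT7 KO liver 4. GPI anchor genes (1) gave 0 at 0.05 and in that removal, 2 with array weights or without dim probe sets, and 0 to 1 without 1 array. Relatives and neighbours (0 each) gave 0 to 1 without 1 array, and 1 neighbour, Eef1d, passed with trend and robust variance, array weights or without dim probe sets. The removals leave fewer samples, and other causes were not tested.

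Same-numbered SIRT7 KO and WT arrays deviated together in 2 of 4 pairs (r from -0.25 to 0.26), so the numbers were not taken as pairs. With the replicate number as a block, 628 probe sets, 3 interferon-gamma-inducible genes and 1 relative, Cd59a (adjusted p = 0.071), passed, and Gbp7 did not (adjusted p = 0.18). Ly6f and Ly6h lie near the low end of signal, which limits what these arrays can show of them.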
